A study of Homo sapiens with 9 samples.

Results

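Genes of the mitotic spindle and of cell division, 40 of the 51796 genes in the count table, were measured in A549 lung adenocarcinoma cells with a stable knockdown of PRMT5 or of its partner MEP50. The 40 members were a list of symbols matched to Ensembl identifiers, and all 40 passed the filter on low counts. The list was chosen with earlier results of these data known. PRMT5 is an arginine methyltransferase, and MEP50, encoded by WDR77, is the subunit that binds it and helps it take its substrates. Both knockdown groups and the control carried a stable short hairpin RNA under puromycin selection in RPMI medium with fetal bovine serum. PRMT5kd carried a hairpin against PRMT5, MEP50kd a hairpin against MEP50, and GFPkd a control hairpin against GFP, each as 3 biological replicates. With 1 hairpin group per target in the labels, loss of a target and effects of its hairpin cannot be told apart. Total RNA was depleted of rRNA and sequenced with a stranded protocol. Levels are CPM, read counts scaled to a common library size, with SD over 3 libraries. Fold changes are on the log2 scale with their SE. A gene was called at an adjusted p below 0.05 (edgeR quasi-likelihood test, Benjamini-Hochberg adjustment over 14582 genes).

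Division genes are transcribed in waves and peak in G2 and mitosis. Their promoters are held down in resting and G1 cells by the DREAM complex and switched on later by the MuvB core together with MYBL2 and FOXM1. MuvB binds a short promoter element named the cell cycle genes homology region (CHR), and the factor NF-Y binds CCAAT boxes that usually lie just upstream of it. The encoded proteins drive entry into mitosis, build the spindle, hold anaphase back until every kinetochore is attached, and then cut the cell into daughters. RNA from bulk cultures sums over all cells, so more cells in G2 and mitosis and more RNA of these genes per cell cannot be told apart.

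Promoter sequence was at hand for 33 of the 40 members (RefSeq, build GRCh38.p14, 250 bases before to 50 bases after the annotated transcript start). AURKA, BIRC5, BUB3, FOXM1, TPX2, TTK and UBE2C were not among them. The CHR was searched as TTTGAA or TTTAAA and the CCAAT box as CCAAT, on both strands. A CHR match lay in 30 of the 33 members (90.9%), against 24.0% of all 35116 promoters of the same length. A CCAAT match lay in 27 members (81.8%), against 34.6% of all promoters, and both lay in 24 members (72.7%), against 9.3%. In 23 of the 33 members a CHR match began within 70 bases upstream of the start, against 6.2% of all promoters, a window chosen after the positions were seen. A match is a run of letters and not a shown binding site.

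The promoters of 8 members are shown because they span the responses described below. CDC20, KIF20A, CDCA8 and CCNB2 rose in both knockdowns, CCNB1 is the close relative of CCNB2, PTTG1 moved in opposite directions, and CDK1 and INCENP were called in neither knockdown. These genes were picked after their values were seen. Each stretch is the 165 bases upstream of the start on the plus strand: CDC20 at chr1:43358816-43358980, KIF20A at chr5:138178947-138179111, CDCA8 at chr1:37692351-37692515, CCNB2 at chr15:59104981-59105145, CCNB1 at chr5:69166985-69167149, PTTG1 at chr5:160421690-160421854, CDK1 at chr10:60778166-60778330 and INCENP at chr11:62123846-62124010. Capitals mark CHR matches and CCAAT matches, and a CCAAT match on the opposite strand reads as ATTGG.
CDC20: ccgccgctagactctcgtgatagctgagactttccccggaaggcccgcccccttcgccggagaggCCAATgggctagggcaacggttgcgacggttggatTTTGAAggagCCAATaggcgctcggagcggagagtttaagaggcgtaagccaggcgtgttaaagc
KIF20A: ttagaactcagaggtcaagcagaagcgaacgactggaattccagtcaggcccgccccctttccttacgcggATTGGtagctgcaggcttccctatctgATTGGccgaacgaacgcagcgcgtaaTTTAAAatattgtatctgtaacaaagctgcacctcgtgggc
CDCA8: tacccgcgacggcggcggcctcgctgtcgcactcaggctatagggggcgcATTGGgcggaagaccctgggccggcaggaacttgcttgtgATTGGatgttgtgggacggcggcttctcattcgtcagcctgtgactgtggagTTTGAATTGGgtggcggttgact
CCNB2: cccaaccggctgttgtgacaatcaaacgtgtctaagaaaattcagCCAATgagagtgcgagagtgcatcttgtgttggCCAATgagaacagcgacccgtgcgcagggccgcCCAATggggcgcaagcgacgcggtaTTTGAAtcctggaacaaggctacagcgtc
CCNB1: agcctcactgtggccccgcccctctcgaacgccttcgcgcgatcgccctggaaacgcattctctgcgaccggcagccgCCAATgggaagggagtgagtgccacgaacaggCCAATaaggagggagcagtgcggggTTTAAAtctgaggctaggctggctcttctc
PTTG1: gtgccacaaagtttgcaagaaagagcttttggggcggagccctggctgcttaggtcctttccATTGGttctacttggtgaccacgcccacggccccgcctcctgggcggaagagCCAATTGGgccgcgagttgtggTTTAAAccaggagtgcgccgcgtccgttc
CDK1: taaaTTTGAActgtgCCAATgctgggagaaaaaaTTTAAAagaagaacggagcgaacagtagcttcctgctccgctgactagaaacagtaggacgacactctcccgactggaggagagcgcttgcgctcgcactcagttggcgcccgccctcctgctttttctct
INCENP: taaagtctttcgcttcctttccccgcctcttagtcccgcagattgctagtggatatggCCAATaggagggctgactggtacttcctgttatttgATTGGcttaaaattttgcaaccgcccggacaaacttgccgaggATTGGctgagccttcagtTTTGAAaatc
In CDCA8 the CHR match and the CCAAT match nearest to the start share bases, and in PTTG1 CCAAT matches on opposite strands overlap.

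The CHR match nearest upstream of the start began at position -65 in CDC20, -41 in KIF20A, -23 in CDCA8, -29 in CCNB2, -30 in CCNB1 and -29 in PTTG1. INCENP held its CHR match at -10 and CDK1 at -131. CCNB2 (TTTGAA) and CCNB1 (TTTAAA) thus held matches at nearly the same position, although their changes differed in size. Of the 30 members with a CHR match, 23 were called higher in PRMT5kd and 26 in MEP50kd than in GFPkd, with median log2 fold changes of 0.27 and 0.26. Over all 40 members, 31 were called higher in PRMT5kd and 36 in MEP50kd, against 26.1% and 26.5% of all genes. The 3 members without a CHR match, AURKB, BUB1 and CCNA2, were called higher in both, and each of them held a CCAAT match. Whether a CHR match went with a rise was not tested.

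**Figure D1:**
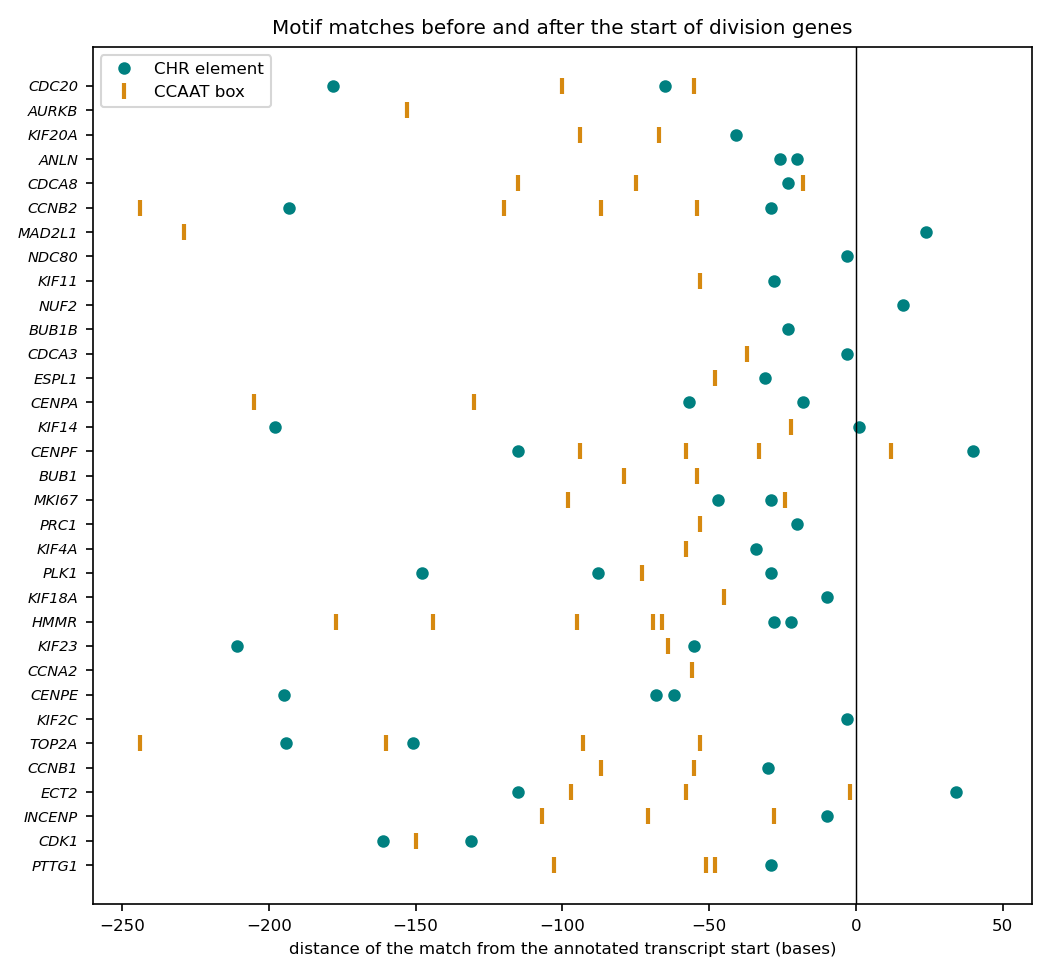
Position of each CHR match (dots) and CCAAT match (bars) in the promoters of 33 division genes, in bases from the annotated transcript start at 0 (x axis), with the genes ordered from the largest to the smallest log2 fold change of PRMT5kd over GFPkd. In 23 of the 33 promoters a CHR match begins within 70 bases upstream of the start.

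Reads on genes numbered 25192565 to 31586128 per library in PRMT5kd, 20806181 to 28663624 in MEP50kd and 25075508 to 29461432 in GFPkd. The members drew between 389 and 34664 reads per library, and their coefficient of variation within a group had a median of 2.16% and a maximum of 9.22%, so changes of well under 1.25-fold could be called. PRMT5 had 68.9 ± 1.33 CPM in PRMT5kd and 204 ± 6.35 in MEP50kd, against 209 ± 3.17 in GFPkd, and WDR77 had 44.1 ± 2.52 CPM in PRMT5kd and 12.5 ± 1.58 in MEP50kd, against 39.4 ± 0.225 in GFPkd. Of 9 lung epithelial markers, KRT8 and KRT18 were high while KRT19, EPCAM, NKX2-1, SFTPC and SFTPB were at or near 0. The 9 markers together summed to 4154 to 4313 CPM in PRMT5kd and 3870 to 4147 CPM in MEP50kd, against 6345 to 6576 CPM in GFPkd, nearly all of it KRT8 and KRT18. CDH1 and KRT7, the other markers that could be tested, were called higher in MEP50kd. In PRMT5kd CDH1 was called lower, as KRT8 and KRT18 were, and KRT7 was not called. CDH1 had 34.9 ± 2.45 CPM in PRMT5kd and 75.6 ± 8.50 CPM in MEP50kd, against 40.1 ± 1.64 CPM in GFPkd. KRT7 had 3.24 ± 0.901 CPM in PRMT5kd and 4.19 ± 0.580 CPM in MEP50kd, against 2.52 ± 0.354 CPM in GFPkd. The 5 fibroblast markers summed to 0.419 to 0.907 CPM in PRMT5kd and 7.93 to 8.24 CPM in MEP50kd, against 4.49 to 5.91 CPM in GFPkd, nearly all of it LUM. The part of these markers in the results below was not tested, while 5 blood and 4 endothelial markers summed to at most 0.200 and 0.270 CPM in any library.

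Most division genes were higher in PRMT5kd than in GFPkd, by small margins. Of the 40 members, 31 were called higher and 1, PTTG1, lower, against a background of 26.1% higher and 24.9% lower among all genes tested. The members' median log2 fold change was 0.27 (interquartile range 0.10 to 0.35), against 0.00 for all genes (-0.21 to 0.22). Fold changes of members lay between -0.13 and 0.72, and 14 of the 40 were called and at least 1.25-fold higher, against 13.3% of all genes, a fold chosen after the data were seen. No member was that much lower, against 13.6% of all genes. In 34 members every PRMT5kd library lay above every GFPkd library and in 1 below, against 29.3% and 27.9% of all genes.

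MEP50kd gave a rise in nearly all members. Here 36 of the 40 were called higher and 1, the kinetochore motor gene CENPE, lower than in GFPkd, against a background of 26.5% higher and 25.2% lower. The median log2 fold change was again 0.27, with an interquartile range of 0.16 to 0.46, against 0.00 for all genes (-0.24 to 0.22). Called and at least 1.25-fold higher were 18 members, against 14.2% of all genes, and 0 were as much lower, against 14.7%. All 3 MEP50kd libraries lay above all 3 GFPkd libraries in 36 members and below them in 3, against 28.7% and 28.2% of all genes. The comparisons of PRMT5kd and MEP50kd share the GFPkd libraries, so their calls are not independent of each other. In both comparisons 30 members were called higher, against 17.7% of all genes, 0 were called lower in both, against 15.5%, and CDK1, INCENP and ECT2 were called in neither, against 33.2% of all genes.

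Summed over the 40 members, the level was 8744 to 8898 CPM in PRMT5kd and 8989 to 9110 CPM in MEP50kd, against 7528 to 7635 CPM in GFPkd. No knockdown library came near the control range, and the sum stood at 1.16 times the GFPkd mean in PRMT5kd and 1.19 times in MEP50kd. Genes of S phase, the stage of DNA replication before G2, summed to 2621 to 2658 CPM in PRMT5kd and 2619 to 2676 CPM in MEP50kd, against 2658 to 2690 CPM in GFPkd. Their sums differed little between the groups, at 0.986 and 0.991 times the control, while single S phase genes moved in both directions.

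**Figure D2:**
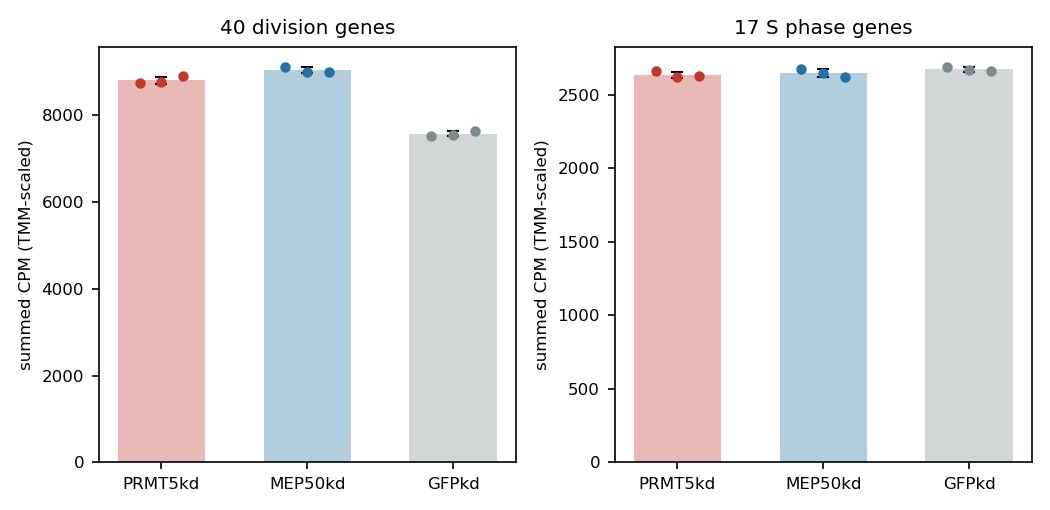
Summed level in CPM (y axis, from 0) of the 40 division genes (left) and of 17 S phase genes (right) in each library (points), with the mean (bars) and SD (n = 3) of PRMT5kd, MEP50kd and GFPkd. The division genes sum to 8744 CPM or more in every knockdown library and to 7635 CPM or less in every GFPkd library, while the S phase sums lie between 2619 and 2690 CPM throughout.

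Per kilobase of exon (RPKM, with exon lengths from GENCODE 29 on GRCh38 while the reads were counted on hg19), the median level of the members was 34.2 in PRMT5kd and 36.5 in MEP50kd, against 29.2 in GFPkd. TOP2A, the topoisomerase that untangles sister chromatids, had the highest level, at 169 ± 2.71 RPKM in PRMT5kd, 175 ± 4.96 in MEP50kd and 163 ± 1.46 in GFPkd. TPX2 followed in GFPkd at 97.6 ± 1.29 RPKM, then UBE2C at 91.4 ± 4.68, CCNB1 at 85.4 ± 1.71 and AURKA at 82.2 ± 1.67. From TPX2 to AURKA, each lay within about 2 SD of the next, by the larger SD of the pair. CDC20 stood below these 5 in GFPkd, at 70.4 ± 1.93 RPKM. It stood above CCNB1 and AURKA in PRMT5kd at 116 ± 4.68 and in MEP50kd at 113 ± 3.52. UBE2C, at 107 ± 1.48 in PRMT5kd and 108 ± 1.93 in MEP50kd, lay within about 2 SD of CDC20 in each. CDCA3 had the lowest level per length, 3.27 ± 0.291 RPKM in PRMT5kd and 3.65 ± 0.337 in MEP50kd, against 2.63 ± 0.109 in GFPkd.

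**Figure D3:**
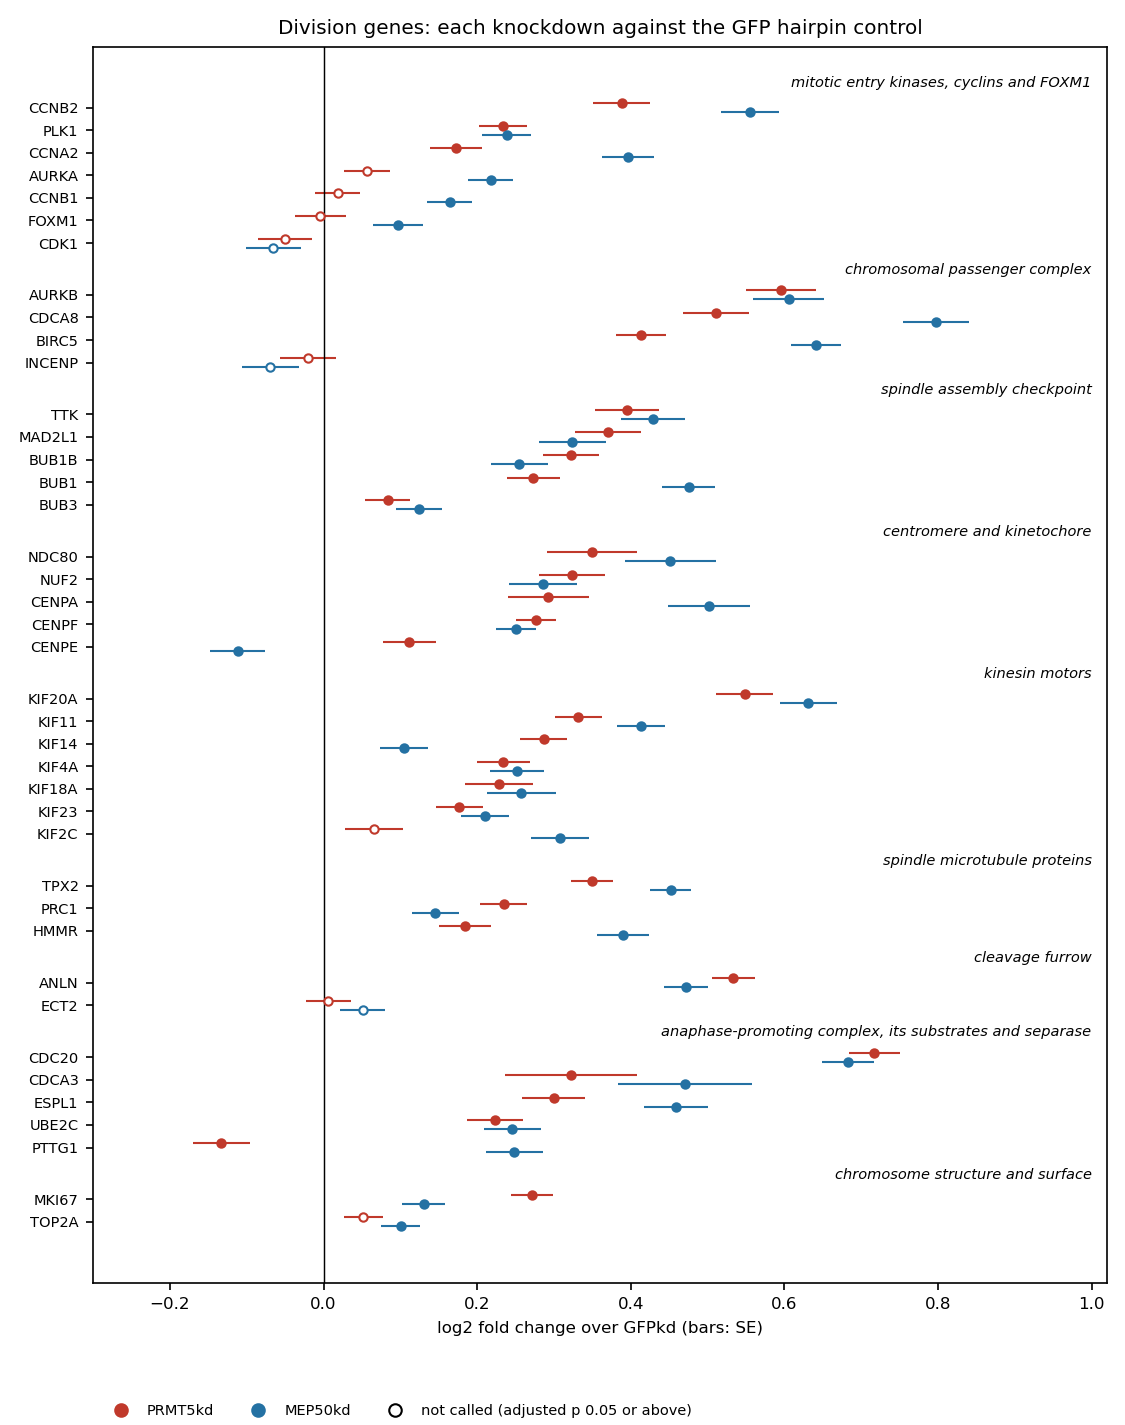
Log2 fold change over GFPkd (x axis, bars are SE) of the 40 division genes, grouped by role, in PRMT5kd (red) and MEP50kd (blue), with open points for genes at an adjusted p of 0.05 or above. Fold changes reach 0.72 in PRMT5kd and 0.80 in MEP50kd. PTTG1 lies below 0 in PRMT5kd alone and CENPE in MEP50kd alone, and CDK1 and INCENP lie near 0.

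Of 7 genes for entry into mitosis, 3 were called higher in PRMT5kd and 6 in MEP50kd, and none lower in either. This count and those of the other roles below are to be read against the shares of all genes. Those were 26.1% higher and 24.9% lower in PRMT5kd, and 26.5% higher and 25.2% lower in MEP50kd. CDK1, the kinase at the centre of mitotic entry, had 206, 219 and 191 CPM in PRMT5kd and 199.7, 203 and 206 CPM in MEP50kd, against 213, 209 and 216 CPM in GFPkd. The PRMT5kd libraries straddled the control values and the MEP50kd libraries lay just below them, and neither difference was called (log2 fold change -0.05 ± 0.04, adjusted p = 0.249, and -0.07 ± 0.04, adjusted p = 0.126). Without PRMT5kd replicate 2, CDK1 was called lower in PRMT5kd (-0.10, adjusted p = 0.0179), and without the filter on low counts (-0.08, 0.0481) or in a fit of the MEP50kd and GFPkd libraries alone (-0.07, 0.049) it was called lower in MEP50kd.

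The cyclins that activate CDK1 differed among themselves. CCNB2, encoding cyclin B2, had 131, 127 and 128 CPM in PRMT5kd and 140.0, 146 and 147 CPM in MEP50kd, against 93.4, 98.5 and 102 CPM in GFPkd. All knockdown libraries exceeded all controls, with log2 fold changes of 0.39 ± 0.04 in PRMT5kd (adjusted p = 1.38e-11) and 0.56 ± 0.04 in MEP50kd (5.05e-16). CCNB1, encoding cyclin B1, had 221, 221 and 222 CPM in PRMT5kd and 242, 246 and 247 CPM in MEP50kd, against 222, 219 and 214 CPM in GFPkd. Its PRMT5kd values fell inside the control range (log2 fold change 0.02 ± 0.03, adjusted p = 0.637), while all MEP50kd libraries were higher (0.16 ± 0.03, adjusted p = 9.63e-06). CCNA2, encoding cyclin A2, which acts in S phase and early mitosis, rose in both, by 0.17 ± 0.03 in PRMT5kd and 0.40 ± 0.03 in MEP50kd on the log2 scale (adjusted p = 3.95e-05 and 4.32e-13). CCNA2 shares exon bases with EXOSC9 on the opposite strand, and whether the counting used strand is not given in the sources used here. In all, 14 of the 40 members share exon bases with another gene, and not all of them are pointed out below.

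Among the kinases, PLK1, which acts in centrosome maturation and in many later steps, rose to 209 ± 4.29 CPM in PRMT5kd and 209.8 ± 6.46 CPM in MEP50kd, against 178 ± 3.38 CPM in GFPkd (log2 fold changes 0.23 ± 0.03 and 0.24 ± 0.03). AURKA, the spindle pole kinase, had 255, 249 and 248 CPM in PRMT5kd and 279, 275 and 286 CPM in MEP50kd, against 235, 244 and 243 CPM in GFPkd. Groups did not overlap, yet the PRMT5kd difference was not called (0.06 ± 0.03, adjusted p = 0.107), whereas the MEP50kd difference was (0.22 ± 0.03, adjusted p = 4.81e-08). FOXM1, a transcription factor that activates many genes of this list, had 149.6, 150.1 and 153 CPM in PRMT5kd, 166, 161 and 159 CPM in MEP50kd, and 149, 155 and 150.2 CPM in GFPkd. PRMT5kd and control values overlapped (adjusted p = 0.929), and the MEP50kd rise of 0.10 ± 0.03 (adjusted p = 0.013) was lost without GFPkd replicate 1 (0.09, adjusted p = 0.0559) and without the filter on low counts (0.08, 0.0907). FOXM1 shares exon bases with ITFG2 on the opposite strand, whose reads came to 9.68% of its own over all libraries.

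The chromosomal passenger complex held large rises in 3 subunits and no call for the scaffold. This complex corrects faulty spindle attachments at centromeres and later guides cytokinesis, and its subunits are the kinase AURKB, the scaffold INCENP, BIRC5 (survivin) and CDCA8 (borealin). AURKB had 81.1, 86.4 and 91.0 CPM in PRMT5kd and 90.0, 85.1 and 85.7 CPM in MEP50kd, against 55.9, 58.8 and 56.5 CPM in GFPkd. Every knockdown library stood well above the controls, and the log2 fold changes were 0.60 ± 0.05 in PRMT5kd (adjusted p = 1.81e-14) and 0.61 ± 0.05 in MEP50kd (1.61e-14). CDCA8 had 75.5, 79.2 and 79.4 CPM in PRMT5kd and 93.9, 94.8 and 97.1 CPM in MEP50kd, against 54.6, 53.9 and 56.0 CPM in GFPkd. The groups formed 3 steps without overlap, with log2 fold changes of 0.51 ± 0.04 (adjusted p = 3.25e-13) and 0.80 ± 0.04 (3.69e-19); the MEP50kd value was the largest of any member.

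BIRC5 had 209, 206 and 202 CPM in PRMT5kd and 234, 248 and 240.0 CPM in MEP50kd, against 149.7, 160.1 and 153 CPM in GFPkd. It followed the order of CDCA8, with MEP50kd highest, and rose by 0.41 ± 0.03 in PRMT5kd (adjusted p = 3.94e-14) and 0.64 ± 0.03 in MEP50kd (4.64e-20). INCENP had 117, 115 and 119.8 CPM in PRMT5kd and 114, 109 and 117 CPM in MEP50kd, against 119, 119.8 and 118 CPM in GFPkd. PRMT5kd overlapped the control, MEP50kd lay just below it, and neither difference was called (adjusted p = 0.67 and 0.115), although the MEP50kd one was called lower without MEP50kd replicate 3 (-0.10, adjusted p = 0.0473).

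**Figure D4:**
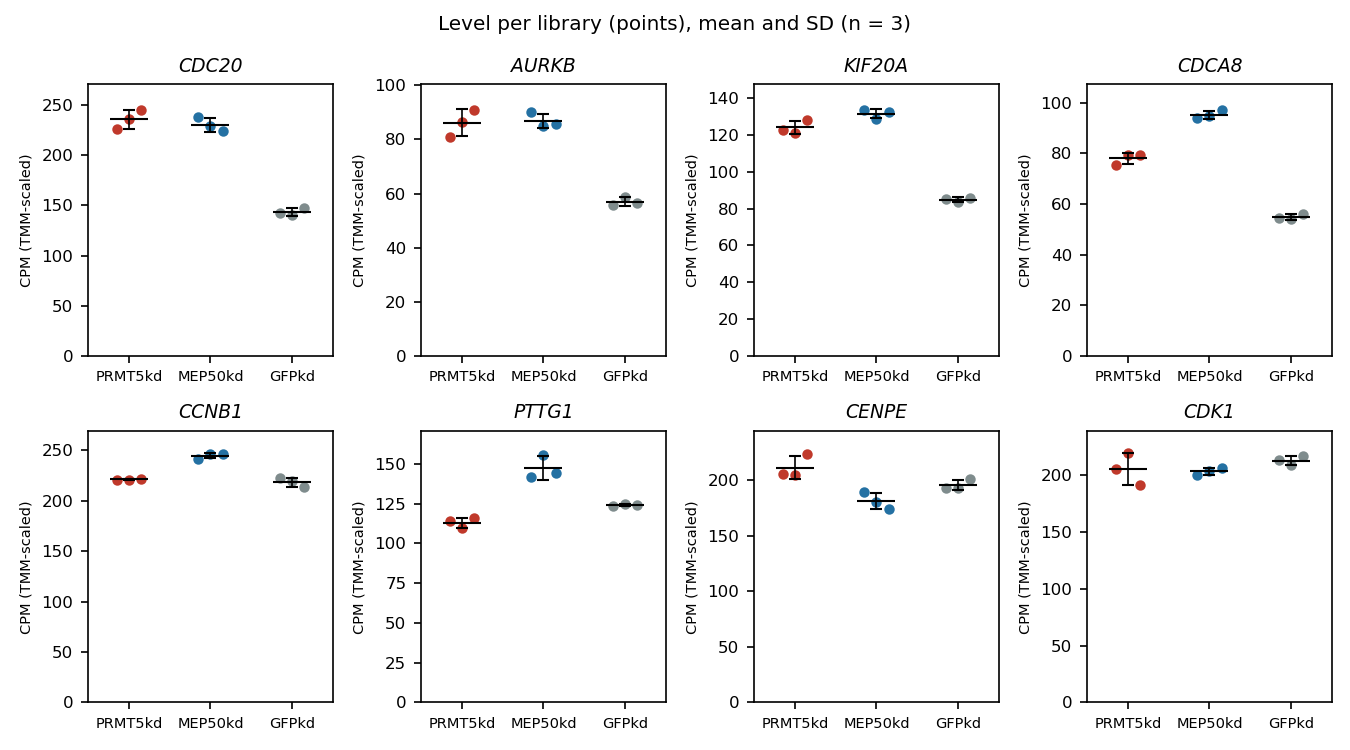
Level in CPM (y axes, from 0) of 8 division genes in each library (points), with the mean and SD (n = 3) of PRMT5kd, MEP50kd and GFPkd. CDC20, AURKB, KIF20A and CDCA8 are higher in every knockdown library, CCNB1 in the MEP50kd libraries, PTTG1 and CENPE differ in opposite directions between the knockdowns, and the CDK1 groups lie within 191 to 219 CPM.

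All 5 members grouped under the spindle assembly checkpoint, which blocks anaphase until every chromosome is attached, were called higher in both knockdowns. Further checkpoint genes were counted on another list, given below, which moved in both directions. Of its 35 genes, 15 were called higher and 7 lower in PRMT5kd, and 17 higher and 9 lower in MEP50kd. KNTC1 on that list was called lower in PRMT5kd (log2 fold change -0.15, adjusted p = 0.00984) and in MEP50kd (-0.28, adjusted p = 1.54e-05). TTK, the kinase at the top of the checkpoint, had 106 ± 1.42 CPM in PRMT5kd and 108 ± 1.76 CPM in MEP50kd, against 80.3 ± 5.25 CPM in GFPkd, with log2 fold changes of 0.39 ± 0.04 and 0.43 ± 0.04. MAD2L1, which forms the diffusible inhibitor, rose by 0.37 ± 0.04 and 0.32 ± 0.04, and BUB1B, a partner in that inhibitor, by 0.32 ± 0.04 and 0.26 ± 0.04 in PRMT5kd and MEP50kd. None of these 3 was called between the knockdowns (adjusted p = 0.546 for TTK, 0.41 for MAD2L1 and 0.143 for BUB1B). BUB1, a kinase of the outer kinetochore, had 159, 158 and 167 CPM in PRMT5kd and 194, 182 and 182 CPM in MEP50kd, against 132, 133 and 135 CPM in GFPkd. Its 3 groups did not overlap, and it rose by 0.27 ± 0.03 in PRMT5kd (adjusted p = 9.06e-09) and 0.48 ± 0.03 in MEP50kd (3.39e-15). BUB3, the adaptor that brings the BUB kinases to kinetochores, moved least, by 0.08 ± 0.03 in PRMT5kd (adjusted p = 0.0177) and 0.12 ± 0.03 in MEP50kd (0.000549). The BUB3 call in PRMT5kd was lost without PRMT5kd replicate 1 (adjusted p = 0.121) or 2 (0.0612), without GFPkd replicate 1 (0.0772) or 2 (0.0798), and without the filter on low counts (0.0737).

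At the centromere and kinetochore, 5 of 5 genes were called higher in PRMT5kd, and in MEP50kd 4 were higher and 1 lower. CENPA, the histone variant that marks centromeres, had 55.4, 51.5 and 49.8 CPM in PRMT5kd and 62.5, 61.1 and 57.5 CPM in MEP50kd, against 43.9, 42.1 and 41.7 CPM in GFPkd. Its groups did not overlap (log2 fold changes 0.29 ± 0.05, adjusted p = 1.17e-05, and 0.50 ± 0.05, adjusted p = 1.53e-10), but CENPA shares exon bases with SLC35F6 on the same strand, so its count is uncertain. NDC80 and NUF2, which together form the arm that grips spindle microtubules, rose by 0.35 ± 0.06 and 0.32 ± 0.04 in PRMT5kd and by 0.45 ± 0.06 and 0.29 ± 0.04 in MEP50kd. CENPF, a large coat protein of the outer kinetochore, had 706 ± 4.01 CPM in PRMT5kd and 694 ± 17.0 CPM in MEP50kd, against 583 ± 5.13 CPM in GFPkd (0.28 ± 0.03 and 0.25 ± 0.03).

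CENPE, the kinetochore motor that carries chromosomes to the spindle equator, went against this pattern in MEP50kd. Its levels were 206, 205 and 224 CPM in PRMT5kd and 189, 181 and 175 CPM in MEP50kd, against 194, 193 and 201 CPM in GFPkd. PRMT5kd lay above the control and MEP50kd below it, by 0.11 ± 0.03 (adjusted p = 0.0066) and -0.11 ± 0.04 (adjusted p = 0.0073). Each call against the control rested on single libraries: the rise was lost without PRMT5kd replicate 3 (0.06, adjusted p = 0.134), and the fall without MEP50kd replicate 3 (-0.09, 0.056) or GFPkd replicate 3 (-0.09, 0.0577). The difference between the knockdowns was larger, at 0.22 ± 0.04 (adjusted p = 1.69e-06), and kept its call in all 18 alternatives.

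Of the 7 members grouped as mitotic kinesins, 6 were called higher in PRMT5kd and 7 in MEP50kd. The motor gene CENPE, called lower in MEP50kd, was counted with the kinetochore genes and not here. KIF20A, which moves the chromosomal passenger complex to the central spindle, had 123, 121 and 128 CPM in PRMT5kd and 133, 129 and 132 CPM in MEP50kd, against 85.3, 83.3 and 86.0 CPM in GFPkd. All knockdown libraries were far above the controls (log2 fold changes 0.55 ± 0.04, adjusted p = 4.81e-16, and 0.63 ± 0.04, adjusted p = 7.66e-18). KIF20A shares exon bases with BRD8 and CDC23 on the opposite strand, whose reads came to 73.3% and 81.2% of its own over all libraries. KIF11, the motor that pushes spindle poles apart, had 339, 325 and 356 CPM in PRMT5kd and 356, 359 and 364 CPM in MEP50kd, against 262, 272 and 276 CPM in GFPkd. It rose by 0.33 ± 0.03 and 0.41 ± 0.03, with every knockdown library above every control. KIF4A and KIF23, motors of the central spindle, and KIF18A, which dampens chromosome movements, rose by 0.18 to 0.23 in PRMT5kd and 0.21 to 0.26 in MEP50kd. KIF4A and KIF18A share exon bases on the opposite strand with PDZD11 and METTL15.

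The other two kinesins differed between the knockdowns. KIF2C, which takes microtubules apart at centromeres, had 105.6, 106.3 and 106.3 CPM in PRMT5kd and 128, 122 and 126 CPM in MEP50kd, against 97.1, 103 and 104 CPM in GFPkd. Values of PRMT5kd lay only just above the control and were not called (0.07 ± 0.04, adjusted p = 0.146), while MEP50kd was called higher (0.31 ± 0.04, adjusted p = 4.99e-09). KIF14, a motor of the midbody needed for abscission, showed the reverse order, with 219, 221 and 222 CPM in PRMT5kd and 191, 199 and 194 CPM in MEP50kd, against 175, 183 and 184 CPM in GFPkd. It rose by 0.29 ± 0.03 in PRMT5kd (adjusted p = 2.22e-10) and by 0.11 ± 0.03 in MEP50kd (0.0045).

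All 3 spindle microtubule proteins were called higher in both knockdowns. TPX2, which activates AURKA and seeds microtubules near chromosomes, had 447, 441 and 458 CPM in PRMT5kd and 474, 485 and 486 CPM in MEP50kd, against 348, 357 and 350.5 CPM in GFPkd (log2 fold changes 0.35 ± 0.03, adjusted p = 2.78e-14, and 0.45 ± 0.03, adjusted p = 1.14e-17). HMMR, a spindle pole protein, rose by 0.18 ± 0.03 in PRMT5kd and 0.39 ± 0.03 in MEP50kd. PRC1, which bundles microtubules of the central spindle, rose by 0.23 ± 0.03 and 0.15 ± 0.03. At the cleavage furrow, ANLN (anillin, which ties actin and myosin to the membrane) had 353, 349.6 and 352 CPM in PRMT5kd and 343, 335 and 332 CPM in MEP50kd, against 241, 239 and 249 CPM in GFPkd. The control libraries were far below the rest (0.53 ± 0.03, adjusted p = 2.16e-19, and 0.47 ± 0.03, adjusted p = 1.33e-17). ECT2, the exchange factor that switches on RHOA at the furrow, had 328, 338 and 319.6 CPM in PRMT5kd and 329.8, 345 and 342 CPM in MEP50kd, against 331, 324 and 327 CPM in GFPkd. Its groups overlapped in both comparisons and it was not called (0.01 ± 0.03, adjusted p = 0.873, and 0.05 ± 0.03, adjusted p = 0.143), although without MEP50kd replicate 1 it was called higher in MEP50kd (0.07, adjusted p = 0.0396).

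The anaphase genes held the largest rise in PRMT5kd, that of CDC20, and the opposite movement of PTTG1. The anaphase-promoting complex is a ubiquitin ligase that marks securin and cyclins for destruction. CDC20, its activator in mitosis, had 226, 236 and 245 CPM in PRMT5kd and 238, 229 and 224 CPM in MEP50kd, against 142, 140.5 and 148 CPM in GFPkd. Knockdown and control libraries were far apart, and the log2 fold changes were 0.72 ± 0.03 in PRMT5kd (adjusted p = 3.1e-21), the largest of any member there, and 0.68 ± 0.03 in MEP50kd (2.24e-20). The pseudogene CDC20P1 held 3.26% as many reads as CDC20. UBE2C, the conjugating enzyme of the complex, rose by 0.22 ± 0.04 and 0.25 ± 0.04. CDCA3, an adaptor protein that is itself a substrate of the complex, rose by 0.32 ± 0.09 (adjusted p = 0.00178) and 0.47 ± 0.09 (1.53e-05), with the widest errors of the list at 14.9 ± 0.619 CPM in GFPkd. ESPL1, the protease separase that cuts cohesin, had 93.6, 88.8 and 92.7 CPM in PRMT5kd and 105, 104 and 97.9 CPM in MEP50kd, against 74.6, 73.4 and 75.4 CPM in GFPkd. Its groups did not overlap (0.30 ± 0.04, adjusted p = 6.37e-08, and 0.46 ± 0.04, adjusted p = 1.95e-12).

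PTTG1 encodes securin, which holds separase inactive until anaphase. Its levels were 114, 109.6 and 116 CPM in PRMT5kd and 142, 156 and 144 CPM in MEP50kd, against 123, 124 and 124 CPM in GFPkd. Every PRMT5kd library lay below, and every MEP50kd library above, the narrow control range. It fell in PRMT5kd (log2 fold change -0.13 ± 0.04, adjusted p = 0.00278) and rose in MEP50kd (0.25 ± 0.04, adjusted p = 3.61e-07), and both calls held in all 18 alternatives. The separase gene ESPL1, in contrast, rose in both. The copies PTTG2 and PTTG3P drew 0 and 4 reads over all libraries.

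On the chromosomes, MKI67, the surface protein that keeps mitotic chromosomes apart and the source of the Ki-67 proliferation stain, had 704, 721 and 755 CPM in PRMT5kd and 676, 654 and 647 CPM in MEP50kd, against 597, 598 and 612 CPM in GFPkd. The groups did not overlap, and MKI67 rose by 0.27 ± 0.03 in PRMT5kd (adjusted p = 5.44e-11) and 0.13 ± 0.03 in MEP50kd (0.000117). TOP2A had 1070.3, 1104 and 1094 CPM in PRMT5kd and 1157, 1093 and 1131 CPM in MEP50kd, against 1056, 1040.4 and 1058 CPM in GFPkd. Its MEP50kd rise was called (0.10 ± 0.03, adjusted p = 0.000944). In PRMT5kd it was not (0.05 ± 0.03, adjusted p = 0.0863), although scaling by library totals alone brought it to a call (0.06, adjusted p = 0.0487).

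Set against each other, PRMT5kd and MEP50kd differed in fewer members than either did from the control. In this comparison, which tests the difference between the effects of both knockdowns, 4 members were called higher in PRMT5kd than in MEP50kd, 15 lower and 21 neither, against a background of 19.2% higher and 20.5% lower among all genes. The median log2 fold change was -0.04, against 0.00 for all genes. In 5 members all PRMT5kd libraries lay above all MEP50kd libraries and in 17 below, against 23.1% and 24.2% of all genes. PTTG1 (-0.38 ± 0.04, adjusted p = 4.41e-11), CDCA8 (-0.29 ± 0.04, 3.67e-07), KIF2C (-0.24 ± 0.04, 1.33e-06), BIRC5 (-0.23 ± 0.03, 2.07e-07) and CCNA2 (-0.22 ± 0.03, 6.75e-07) lay furthest below. Of the 7 genes for entry into mitosis, 5 were lower in PRMT5kd than in MEP50kd (CCNA2, CCNB1, CCNB2, AURKA and FOXM1). CENPE, KIF14, MKI67 and PRC1 were higher, by 0.22 ± 0.04, 0.18 ± 0.03, 0.14 ± 0.03 and 0.09 ± 0.03. The PRC1 call was lost without PRMT5kd replicate 1 (adjusted p = 0.102) or 3 (0.0607) and without MEP50kd replicate 1 (0.0567), 2 (0.0572) or 3 (0.0656). KIF11 (-0.08, adjusted p = 0.0316) lost its call without PRMT5kd replicate 1 (0.0505) or 2 (0.277), without MEP50kd replicate 3 (0.115), with scaling by library totals (0.114) and without the filter on low counts (0.0913). FOXM1 (-0.10, adjusted p = 0.0131) lost its call with library totals (0.0531) and without that filter (0.0523). CDC20, with a difference of 0.03 ± 0.03 (adjusted p = 0.431), AURKB, with -0.01 ± 0.04 (0.879), and PLK1, with an adjusted p of 0.923, were not called.

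**Figure D5:**
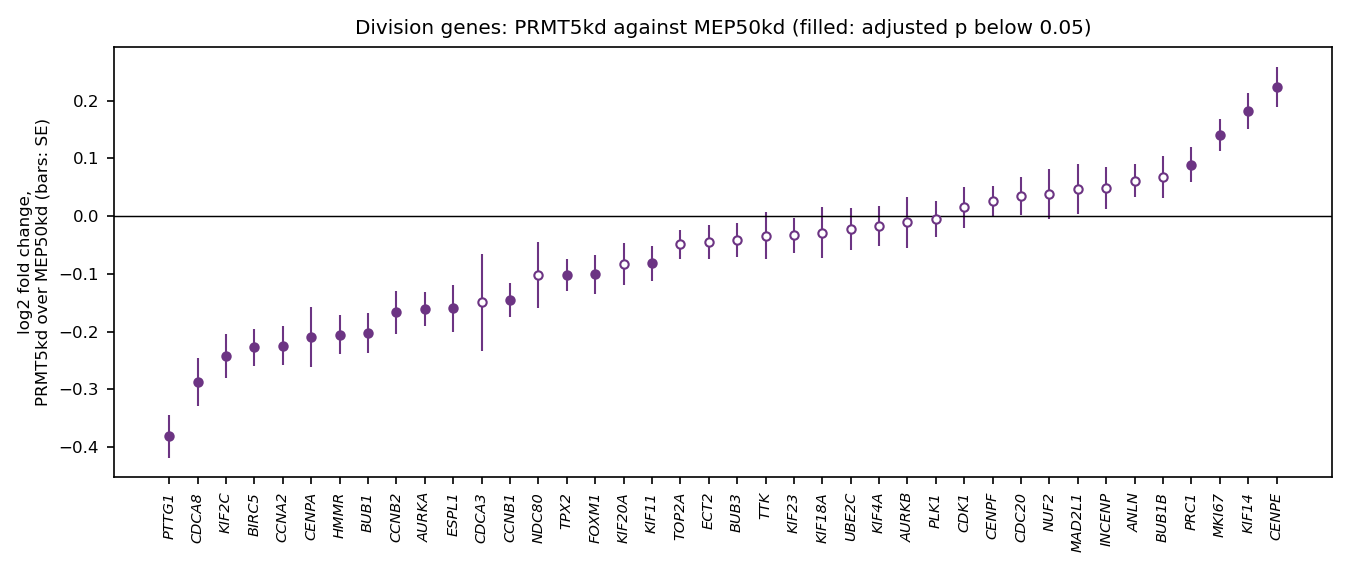
Log2 fold change of PRMT5kd over MEP50kd (y axis, bars are SE) for the 40 division genes in order of size (x axis), with filled points for an adjusted p below 0.05. The called genes run from PTTG1 at -0.38 to CENPE at 0.22, with 15 below and 4 above 0.

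Other mitotic genes moved in both directions. Of 138 tested genes on the further mitotic lists, 69 were called higher and 24 lower in PRMT5kd, and 64 higher and 26 lower in MEP50kd, than in GFPkd, with medians of 0.08 and 0.06 (all genes 0.00). The background among all genes was 26.1% higher and 24.9% lower in PRMT5kd and 26.5% higher and 25.2% lower in MEP50kd, and the counts of each list that follow are to be read against it. Of 35 other kinetochore and checkpoint genes, 15 were higher and 7 lower in PRMT5kd and 17 higher and 9 lower in MEP50kd. TRIP13, the ATPase that recycles the checkpoint inhibitor, had 144 ± 1.83 CPM in PRMT5kd and 143 ± 5.05 CPM in MEP50kd, against 97.9 ± 6.21 CPM in GFPkd. SPDL1, which brings dynein to kinetochores, rose further in MEP50kd, with 189, 200.2 and 182 CPM in PRMT5kd and 288, 261 and 274 CPM in MEP50kd, against 139, 135 and 133 CPM in GFPkd. Against these, CENPQ, a subunit of the inner kinetochore, fell to 16.7 ± 0.328 CPM in PRMT5kd and 11.7 ± 0.717 CPM in MEP50kd, against 23.6 ± 0.930 CPM in GFPkd. OIP5, which helps load CENPA, fell to 7.54 ± 0.583 CPM in MEP50kd, against 21.0 ± 0.988 CPM in GFPkd (-1.48 ± 0.09, adjusted p = 8.19e-17). In PRMT5kd the fall of OIP5 was small (-0.21 ± 0.08, adjusted p = 0.0352) and was lost in DESeq2 (adjusted p = 0.0565). It was also lost without PRMT5kd replicate 1 (0.125) or 2 (0.068) and without GFPkd replicate 2 (0.103) or 3 (0.0942).

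Among condensin and cohesin genes, 12 of 20 were higher and 4 lower in PRMT5kd, and 8 were higher and 5 lower in MEP50kd. NCAPD3, a condensin II subunit, had 165 ± 1.79 CPM in PRMT5kd and 145 ± 2.99 CPM in MEP50kd, against 104 ± 4.37 CPM in GFPkd, while the cohesin regulator PDS5B fell by 0.54 ± 0.03 in PRMT5kd on the log2 scale. Of 30 other spindle, centrosome and motor genes, 18 were higher and 3 lower in PRMT5kd and 16 higher and 2 lower in MEP50kd, led by the spindle protein gene CKAP2L at 69.9 ± 0.874 CPM in PRMT5kd and 71.8 ± 0.602 CPM in MEP50kd, against 44.5 ± 1.19 CPM in GFPkd. Of 18 subunits and regulators of the anaphase-promoting complex, 5 were higher and 1 lower in PRMT5kd, and 5 higher and 2 lower in MEP50kd, so the share called higher was near the background of 26.1% and 26.5%. FBXO5, the inhibitor of that complex, rose by 0.41 ± 0.05 and 0.39 ± 0.05. ANAPC16 was called lower in PRMT5kd (-0.32 ± 0.04, adjusted p = 4.98e-08). Of 12 tested genes of cytokinesis, 5 were higher and 6 lower in PRMT5kd and 5 higher and 4 lower in MEP50kd. Citron kinase, CIT, was up by 0.38 ± 0.04 in PRMT5kd and 0.57 ± 0.04 in MEP50kd. CHMP2A changed about as much in PRMT5kd in the other direction (-0.38 ± 0.05, adjusted p = 4.17e-09).

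Of 23 other G2 and mitosis kinases, phosphatases and related genes, 14 were higher and 3 lower in PRMT5kd, and 13 higher and 4 lower in MEP50kd. WEE1, the kinase that holds CDK1 inactive, had 61.6, 68.2 and 59.3 CPM in PRMT5kd and 42.4, 42.1 and 36.9 CPM in MEP50kd, against 88.5, 87.3 and 88.1 CPM in GFPkd. It fell in both, by 0.48 ± 0.05 in PRMT5kd (adjusted p = 1.24e-10) and further, by 1.13 ± 0.05, in MEP50kd (6.89e-21), with no overlap of the 3 groups. CDC25A, a phosphatase that removes the mark WEE1 places, was also lower, at 66.5 ± 5.60 CPM in PRMT5kd and 48.3 ± 2.44 CPM in MEP50kd, against 82.4 ± 2.44 CPM in GFPkd.

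Among 23 regulators of these promoters on the list of DREAM and MuvB genes, 6 were higher and 10 lower in PRMT5kd, and 10 higher and 7 lower in MEP50kd. The share called higher in PRMT5kd was at the background of 26.1%. The shares called lower in PRMT5kd and higher in MEP50kd were above their backgrounds of 24.9% and 26.5%. CDKN1A, the CDK inhibitor p21, had 97.6, 92.5 and 92.6 CPM in PRMT5kd and 149, 173 and 168 CPM in MEP50kd, against 103, 105 and 100.04 CPM in GFPkd. It rose in MEP50kd (0.67 ± 0.04, adjusted p = 1.86e-16), and its fall in PRMT5kd (-0.13 ± 0.04, adjusted p = 0.0117) was lost without GFPkd replicate 2 (0.0552). The division genes were higher in MEP50kd beside a higher CDKN1A, and higher in PRMT5kd without one. A part of CDKN1A in the levels of the division genes was not tested.

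The 17 S phase genes moved in both directions, with 9 higher and 5 lower in PRMT5kd and 7 higher and 6 lower in MEP50kd. Called and at least 1.25-fold lower were 2 in PRMT5kd and 5 in MEP50kd, against 13.6% and 14.7% of all genes. As much higher were 0 in each, against 13.3% and 14.2%. PCNA, the sliding clamp of DNA polymerases, fell to 219 ± 4.07 CPM in PRMT5kd and 246 ± 7.58 CPM in MEP50kd, against 309 ± 7.37 CPM in GFPkd. CCNE1, encoding the cyclin of S phase entry, fell to 18.7 ± 2.20 CPM in PRMT5kd and 13.3 ± 0.930 CPM in MEP50kd, against 26.9 ± 2.83 CPM in GFPkd, and CDC6, which loads the replicative helicase, to 122 ± 2.39 CPM in PRMT5kd and 99.99 ± 4.27 CPM in MEP50kd, against 145 ± 1.80 CPM in GFPkd. POLA1, a subunit of the primase polymerase, rose by 0.30 ± 0.07 in PRMT5kd (adjusted p = 0.000541).

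The authors' deposited table for PRMT5kd listed 32 of the members as changed, 31 higher and 1 lower, and the one for MEP50kd listed 37, 36 higher and 1 lower. These were the members called here, and the edgeR log2 fold changes in the authors' deposited tables differed from the values above by at most 0.0003 and 0.0073.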

How the data were processed

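RNA of 9 A549 libraries (PRMT5kd, MEP50kd and GFPkd, 3 biological replicates each, grouped by the labels alone) was measured by sequencing. The authors' deposited table listed raw read counts for each Ensembl gene. Trim Galore, STAR and HTSeq on hg19 are named in the submitters' processing notes; versions, annotation and strand setting are not given in the sources used here. The authors' deposited comparison tables held, per the file headers, log2 fold changes and log2 CPM, p-values of DESeq2 and edgeR, a baseMean signal of scaled counts, and the DESeq2 standard error and test score. They were used only for the comparison with the authors' calls.

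The 5 HTSeq summary lines were left out; reads outside genes made up 13.7% to 14.5% of counted reads in PRMT5kd, 12.3% to 13.8% in MEP50kd and 11.9% to 12.4% in GFPkd. Tests used edgeR 4.0.16 in R 4.3.3 with TMM scaling, filterByExpr (14582 genes kept), 1 robust quasi-likelihood fit over the 9 libraries with a term for group alone, and Benjamini-Hochberg adjustment. The SE of a log2 fold change is its size over the square root of F. The biological coefficient of variation was 0.0395, and replicates differed by 3.30 to 4.61 times the variance of counting alone (chi-square per degree of freedom), so no library was counted as a repeat of another. The labels do not say whether replicates were separate infections, so p-values measure the spread between these cultures. Alternatives were other scalings, DESeq2 1.42.0, other filters, a replicate block, fits of 6 libraries, a threshold of 0.01 and leaving out each library.

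Members and lists were chosen with earlier results of these data known. All 40 members and both targets are named. Up to 3 genes of at least 1 CPM were picked per other list and comparison, those with the largest called change. Not all of those picked in the comparisons with GFPkd are named. Symbols came from a gene-name table, which held 44822 identifiers. LIN37, UHRF1 and PECAM1 were not matched and are not analysed here. The values of 1 further gene on these lists are not reported here.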

Additional observations from a re-analysis of the deposited data

Results flagged for a closer look

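In the direct test of PRMT5kd against MEP50kd (edgeR quasi-likelihood, adjusted p below 0.05), 4 of the 40 members were called higher and 15 lower, against 19.2% and 20.5% of all genes, so differences of this kind were common beyond the members too. Values are log2 fold changes of PRMT5kd over MEP50kd. Lower in PRMT5kd were PTTG1 (-0.38), CDCA8 (-0.29), KIF2C (-0.24), BIRC5 (-0.23), CCNA2 (-0.22), CENPA (-0.21), HMMR (-0.21), BUB1 (-0.20), CCNB2 (-0.17), AURKA (-0.16), ESPL1 (-0.16), CCNB1 (-0.15), TPX2 (-0.10), FOXM1 (-0.10) and KIF11 (-0.082). Higher in PRMT5kd were CENPE (0.22), KIF14 (0.18), MKI67 (0.14) and PRC1 (0.089).

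The genes of the other lists given next are the 3 per list with the largest called change in the same test, so their number was set by the naming rule and is no result. Lower in PRMT5kd than in MEP50kd were CDKN1A (-0.80), SPDL1 (-0.53), PDS5B (-0.41), UBE2D1 (-0.35), DLGAP5 (-0.33), CHMP2A (-0.27), CIT (-0.20), ANAPC16 (-0.19) and RHOA (-0.19). Higher in PRMT5kd were OIP5 (1.27), WEE1 (0.64), CCNE2 (0.61), FAM83D (0.54), CENPQ (0.52), E2F6 (0.50), CCNE1 (0.49), CDC25A (0.46), E2F7 (0.41), UBE2S (0.34), DYNC1H1 (0.33), PCNT (0.31), CDC6 (0.29), NCAPG (0.25) and SMC3 (0.25).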

How the results depend on the processing

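The counts of members called higher kept within 30 to 32 in PRMT5kd against GFPkd and 35 to 37 in MEP50kd against GFPkd over 18 alternatives, and 29 of the 31 and 35 of the 36 members kept their call in each of them. The exceptions were BUB3 and CENPE in PRMT5kd and FOXM1 in MEP50kd. Between PRMT5kd and MEP50kd the counts ran from 3 to 6 higher and 13 to 17 lower, and KIF11, FOXM1 and PRC1 lost their calls in some alternatives. The small counts of members called lower moved. In MEP50kd against GFPkd it was 2 without the low-count filter and 2 in a fit of 6 libraries, where CDK1 joined CENPE, and it ranged from 0 to 1 when each library was left out. In PRMT5kd against GFPkd it ranged from 1 to 2 in the same way. The members' median log2 fold change ran from 0.24 to 0.28 in PRMT5kd and from 0.25 to 0.30 in MEP50kd, while that of all genes stayed between -0.02 and 0.01. Same-numbered replicates did not deviate together (correlations -0.036 to 0.052, against -0.054 to 0.052 for other pairs), and with a replicate block the counts were 31 higher and 1 lower in PRMT5kd, 36 and 1 in MEP50kd, and 4 and 15 between the knockdowns. No called change of a member turned its direction. CDCA3, the member with the fewest reads (389 or more per library), had the widest errors.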
